A study of Mus musculus with 6 samples.

Results

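Acute phase proteins are secreted proteins whose plasma level rises in inflammation, and the genes of 10 of them were followed here in chemically induced mouse lung tumours: Lcn2, Saa1, Saa2, Saa3, Orm1, Orm2, Hp, Lrg1, Cp and Hpx. They were chosen by name among the 33924 gene names of the read count table, and all 10 have a row there. The tumours were taken from lungs of inbred FVB/NJ mice that had received urethane, a carcinogen, at 1 g per kg by intraperitoneal injection (replicates 1, 2 and 4). Normal lungs of the same strain from saline-treated mice served as controls (control replicates 1, 2 and 3), and both were collected at 6 months. Total RNA was sequenced in bulk, with 3 libraries in each group. The labels do not say how tumour was separated from the lung around it, or whether the libraries stem from separate animals, so the p-values below reflect variation among these libraries, which may partly be technical.

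Acute phase proteins are made mainly by hepatocytes, under control of interleukin 6 through STAT3, of interleukin 1 through NF-kappa B, and of C/EBP transcription factors. Several are also made outside the liver: lipocalin 2 by epithelia and neutrophils, haptoglobin in lung epithelium, and serum amyloid A3 by macrophages and epithelia. Many of the encoded proteins keep iron, haem or haemoglobin out of reach of microbes and limit oxidative damage, and others bind lipids or small molecules in plasma.

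The libraries held 38996532 to 62336537 counted reads, and mitochondrial ribosomal RNA took 17.6% to 25.3% of them. Replicate libraries differed well beyond counting error (chi-square divided by its degrees of freedom 63.2 to 277), and none was treated as a repeat of another. Tumour replicate 2 had the sex-linked pattern of a female, and the other 5 libraries that of males. It had 3360 CPM of Xist, against at most 32.9 CPM in the other 5 libraries. Kdm5d, Eif2s3y, Uty and Ddx3y, genes of the Y chromosome, were at most 0.216 CPM in it and at least 37.6 CPM in the others. CPM is the read count scaled to the size of its library. Of all 20001 genes tested, 42.0% changed between tumours and controls (edgeR's quasi-likelihood test with p-values adjusted by Benjamini-Hochberg, under 0.05), 18.1% being higher and 23.8% lower in tumours.

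The acute phase genes did not move together. Lcn2, Orm1 and Lrg1 were higher in tumours than in control lung, Hp and Orm2 were lower, and Saa3, Cp and Hpx did not pass the test. Saa1 and Saa2 had too few reads to be tested. The 3 genes higher and 2 lower among the 8 tested stand beside the shares of all genes given above. Tumour and control CPM did not overlap for those 5 of the 8 tested, and overlapped for Saa3, Cp and Hpx. Over all genes tested, 56.0% did not overlap. Without tumour replicate 2, Cp also passed as lower, which made 3 higher and 3 lower, and without tumour replicate 1 Saa3 also passed as higher, which made 4 higher and 2 lower.

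**Figure D1:**
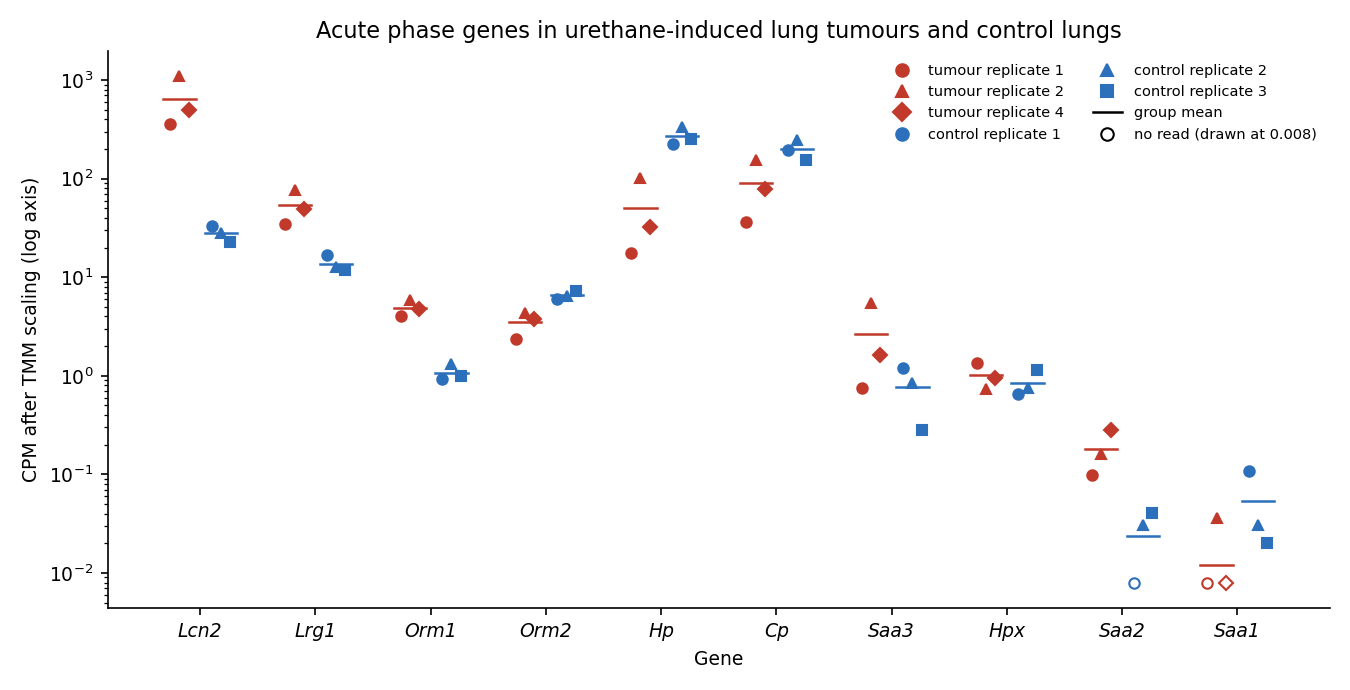
Levels of the 10 acute phase genes in each library, in CPM on a log axis, with tumours in red to the left and controls in blue to the right of each gene; symbols mark replicates, lines mark group means, and open symbols mark libraries with no read. Lcn2 lies at 355 CPM or more in every tumour and at 33.5 CPM or less in every control, and Hp at 102 CPM or less in every tumour and 223 CPM or more in every control.

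**Figure D2:**
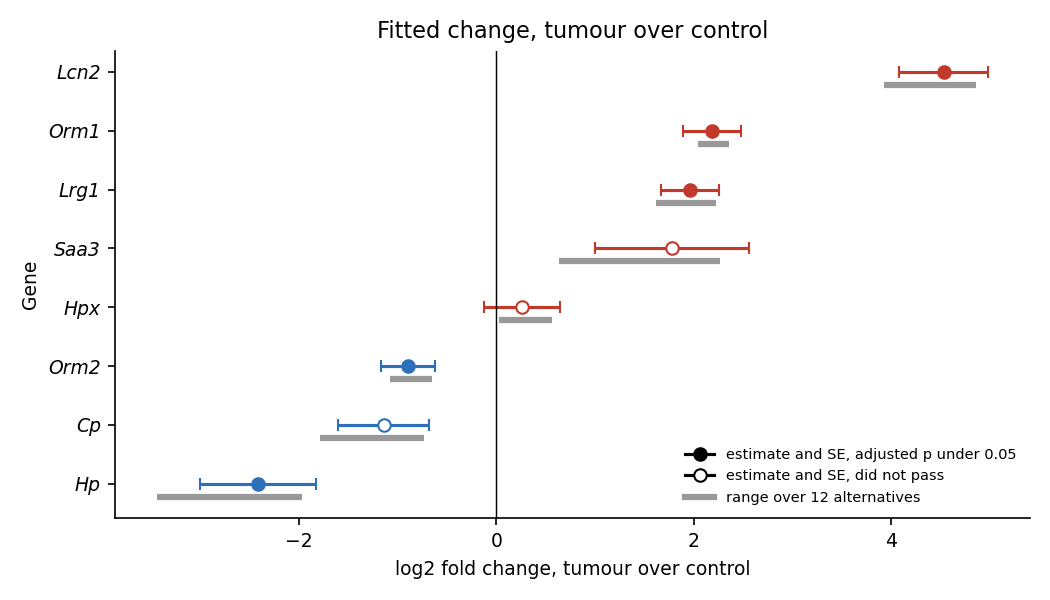
Fitted log2 fold change of tumour over control for the 8 genes tested, with its SE; filled points passed the test, and grey bars give the range over 12 alternative settings or left-out libraries. The estimates run from 4.53 for Lcn2 to -2.42 for Hp.

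Lcn2 encodes lipocalin 2, which binds bacterial siderophores and so withholds iron. The tumours had 355, 1099 and 494 CPM in replicates 1, 2 and 4, and the control lungs had 33.5, 27.98 and 22.7 CPM in replicates 1, 2 and 3. Every tumour was more than 10 times above every control. The mean was 649 ± 395 CPM in tumours and 28.05 ± 5.40 CPM in controls (SD, n = 3 each). The fitted change was 23.2-fold (log2 fold change 4.53 ± 0.45, SE; edgeR adjusted p = 0.000137), which placed Lcn2 at rank 168 of the genes tested by size of rise. Without tumour replicate 2, the highest tumour, the log2 fold change was 3.93 (edgeR adjusted p = 3.10e-05). By level per exon length, Lcn2 took ranks 190, 76 and 137 of all gene names in tumour replicates 1, 2 and 4, and ranks 3023, 3777 and 4612 in control replicates 1, 2 and 3. The gene lies on mm9 chr2:32240153-32243317, minus strand, shares no exon base with another gene name, and shares none of its 32-base words with another gene's transcripts.

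Lrg1 encodes leucine-rich alpha-2-glycoprotein, a secreted protein that modulates TGF-beta signalling in endothelial cells. It had 34.7, 76.9 and 49.6 CPM in tumour replicates 1, 2 and 4, against 16.7, 12.7 and 11.9 CPM in control replicates 1, 2 and 3. The lowest tumour was above the highest control. The fitted change was 3.90-fold higher in tumours (log2 fold change 1.96 ± 0.30, edgeR adjusted p = 0.00106). The gene lies on mm9 chr17:56259103-56261369, minus strand.

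The stretches before the gene start of Lcn2 and Lrg1, which both rose, and of Orm2, which fell, are shown because C/EBP and interleukin 6 signalling are the textbook inducers of these genes. Each holds the 250 bases before the RefSeq start on GRCm38.p6, 5′ to 3′ on the gene's own strand, at chr2:32387740-32387989 (minus strand) for Lcn2, chr17:56121947-56122196 (minus strand) for Lrg1 and chr4:63362199-63362448 (plus strand) for Orm2. Capitals mark matches to the C/EBP core TTNNGNAA or to the interleukin 6 response element core CTGGGA, on either strand.
Lcn2: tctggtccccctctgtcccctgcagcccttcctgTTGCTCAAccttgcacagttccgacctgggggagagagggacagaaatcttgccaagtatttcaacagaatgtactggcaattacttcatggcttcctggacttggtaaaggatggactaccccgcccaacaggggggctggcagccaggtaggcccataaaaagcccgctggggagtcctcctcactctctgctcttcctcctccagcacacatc
Lrg1: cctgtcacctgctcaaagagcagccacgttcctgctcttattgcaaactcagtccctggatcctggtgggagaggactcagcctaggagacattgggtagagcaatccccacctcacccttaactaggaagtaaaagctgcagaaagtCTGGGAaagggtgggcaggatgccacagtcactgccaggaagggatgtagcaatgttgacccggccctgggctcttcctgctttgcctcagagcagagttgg
Orm2: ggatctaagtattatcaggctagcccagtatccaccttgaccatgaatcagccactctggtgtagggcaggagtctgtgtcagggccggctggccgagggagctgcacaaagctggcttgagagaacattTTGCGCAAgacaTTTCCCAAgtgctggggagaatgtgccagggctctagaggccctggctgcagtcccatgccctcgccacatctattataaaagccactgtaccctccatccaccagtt
Lcn2 held 1 C/EBP core match, 216 bases before the start. Lrg1 held 1 match to the interleukin 6 response element core, 102 bases before the start. Orm2 held 2 C/EBP core matches, 120 and 108 bases before it. No stretch held the STAT motif TTCNNNGAA or the kappa B consensus. Of 32851 promoter windows of the same length, 12104 (36.8%) held the C/EBP core, 8869 the response element core, 7.02% the STAT motif and 7.25% the kappa B consensus, so these matches are common and are given as a description. Promoters of 8 of the 10 genes were matched by symbol in the RefSeq table, and those of Orm1 and Hp were not. Among the promoters not shown, Saa3 held 4 C/EBP core matches, Hpx 2, Saa1 2 and Saa2 1. Cp held 1 before each of its 2 starts, and 1 response element core match before start 1. Matches were thus also present in genes that did not pass or could not be tested.

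Orm1 and Orm2 encode orosomucoids, also called alpha-1-acid glycoproteins, plasma lipocalins that bind lipids and drugs. The neighbouring copies went in opposite directions. Orm1 had 4.07, 5.84 and 4.82 CPM in tumour replicates 1, 2 and 4, against 0.924, 1.31 and 0.995 CPM in control replicates 1, 2 and 3. Orm2 had 2.39, 4.35 and 3.797 CPM in the same tumours, against 6.03, 6.38 and 7.19 CPM in the controls. For neither gene did the groups overlap. Orm1 rose 4.54-fold (log2 fold change 2.18 ± 0.30, edgeR adjusted p = 0.000617). Orm2 fell by 0.90 ± 0.28 on the log2 scale (edgeR adjusted p = 0.0320), and this call did not hold without control replicates 1, 2 or 3 or tumour replicate 4, each left out alone (edgeR adjusted p from 0.0621 to 0.119). The Orm1 level was 1.71, 1.34 and 1.27 times the Orm2 level in tumour replicates 1, 2 and 4, and 0.153, 0.205 and 0.138 times in control replicates 1, 2 and 3. Both genes have 775 exon bases in the table, so this ratio also holds per length.

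The pair lies on mm9 at chr4:63005594-63009197 (Orm1) and chr4:63023483-63026912 (Orm2), both on the plus strand. Reads that map to both copies equally well were not requested in the counting, and 27.2% of the 32-base words of Orm1 and 33.3% of those of Orm2 also occur in another gene, so part of each gene's reads may be missing. Their coding sequences, of 621 bases each, differ at 63 bases (89.9% identity). The 60-base stretch with the most differences, bases 138 to 197 counted from the first coding base, is shown from GENCODE M21 transcripts because reads across it can be told apart; capitals mark the 17 bases that differ.
Orm1: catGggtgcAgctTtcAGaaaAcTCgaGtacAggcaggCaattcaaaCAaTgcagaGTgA
Orm2: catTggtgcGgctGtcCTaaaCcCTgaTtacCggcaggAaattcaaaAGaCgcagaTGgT

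Hp, Cp and Hpx encode proteins that handle free haemoglobin, copper and iron, and haem. Haptoglobin, the product of Hp, captures haemoglobin. Hp had 17.4, 102 and 32.2 CPM in tumour replicates 1, 2 and 4, against 223, 336 and 253 CPM in control replicates 1, 2 and 3. The highest tumour was below the lowest control, but the tumours differed 5.86-fold among themselves. Hp fell by 2.42 ± 0.58 on the log2 scale, 5.35-fold, with an edgeR adjusted p = 0.0110. Without tumour replicate 2 its log2 fold change was -3.44 (edgeR adjusted p = 0.000176). In level per exon length, Hp took ranks 3630, 477 and 1774 of all gene names in tumour replicates 1, 2 and 4, and ranks 206, 105 and 142 in control replicates 1, 2 and 3. The gene lies on mm9 chr8:112099030-112103072, minus strand.

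Ceruloplasmin, encoded by Cp, carries copper in plasma and oxidizes ferrous iron. Cp had 36.4, 156 and 78.5 CPM in tumour replicates 1, 2 and 4, against 197, 247 and 154 CPM in control replicates 1, 2 and 3. Tumour replicate 2 lay just above the lowest control, and the other tumours lay below all controls. The log2 fold change was -1.14 ± 0.46 (edgeR adjusted p = 0.0795). Without tumour replicate 2 Cp fell by 1.79 on the log2 scale (edgeR adjusted p = 0.00537). It also passed in DESeq2 and limma-voom with all libraries (adjusted p = 0.0303 and 0.0426). Of the exon bases of Cp, 1.13% lie in exons of Hps3. Hpx encodes hemopexin, which binds haem. It was near 1 CPM in both groups, with 1.34, 0.736 and 0.955 CPM in tumour replicates 1, 2 and 4 and 0.652, 0.745 and 1.14 CPM in control replicates 1, 2 and 3. The groups overlapped, and the log2 fold change was 0.26 ± 0.39 (edgeR adjusted p = 0.630). Cp lies on mm9 chr3:19857054-19909145, plus strand, and Hpx on mm9 chr7:112740127-112748630, minus strand.

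The serum amyloid A genes, whose products are apolipoproteins of high-density lipoprotein during inflammation, were low in all libraries. Saa3, the member made mainly outside the liver in mice, had 0.752, 5.53 and 1.63 CPM in tumour replicates 1, 2 and 4, against 1.195, 0.836 and 0.284 CPM in control replicates 1, 2 and 3. Tumour replicates 2 and 4 lay above all controls, and tumour replicate 1 lay among them. Its log2 fold change was 1.78 ± 0.78 (edgeR adjusted p = 0.102). It was 0.63 without tumour replicate 2 (edgeR adjusted p = 0.459) and 2.26 without tumour replicate 1 (edgeR adjusted p = 0.0177), and DESeq2 on all libraries gave an adjusted p = 0.0355. The 3 genes lie close together on mm9, at chr7:53967368-53971046 (Saa3), chr7:53995871-53998350 (Saa1) and chr7:54007203-54009684 (Saa2).

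Saa1 and Saa2, the major liver forms, fell under the low count filter. Saa1 had 0, 2 and 0 reads in tumour replicates 1, 2 and 4, against 4, 2 and 1 reads in control replicates 1, 2 and 3. The 2 reads over the tumours and 7 over the controls give, after scaling to library size, a tumour over control ratio of 0.266 with an exact binomial 95% interval of 0.0270 to 1.40. Saa2 had 6, 9 and 13 reads in tumour replicates 1, 2 and 4, against 0, 2 and 2 reads in control replicates 1, 2 and 3. Its 28 tumour reads and 4 control reads give a ratio of 6.52 (exact binomial 95% interval 2.28 to 25.6). These intervals cover counting error only, not the spread between libraries. Fitted with no filter on low counts, Saa2 had a log2 fold change of 2.70 (edgeR adjusted p = 0.0560). A library with no read allows up to 0.0490 CPM of Saa1 in tumour replicate 1, up to 0.0651 CPM of Saa1 in tumour replicate 4 and up to 0.0815 CPM of Saa2 in control replicate 1, at 3 counts. The coding sequences of Saa1 and Saa2 are 95.1% identical over 366 bases, and 28.9% of the 32-base words of Saa1 and 26.1% of those of Saa2 occur in another gene, so reads of these copies may be lost or shared. Their most divergent 60 coding bases, 90 to 149, are shown with the 7 differing bases in capitals, because reads across them can be told apart.
Saa1: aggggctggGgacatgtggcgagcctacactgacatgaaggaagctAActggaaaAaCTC
Saa2: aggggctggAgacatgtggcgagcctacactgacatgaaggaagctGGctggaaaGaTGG

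Compared per exon length, the make-up of these transcripts differed between tumours and control lung. RPKM, which is CPM divided by exon length in kilobases, summed over the 10 genes to 207, 651 and 299 in tumour replicates 1, 2 and 4, and to 226, 310 and 235 in control replicates 1, 2 and 3, so the summed level overlapped between the groups. Lcn2 took 74.3%, 73.3% and 71.9% of that sum in tumour replicates 1, 2 and 4, and 6.45%, 3.93% and 4.19% in control replicates 1, 2 and 3. Hp took 6.26%, 11.7% and 8.02% in the tumours, and 73.7%, 80.8% and 80.1% in the controls. The Lcn2 share varied little between tumours, whose sums differed over 3-fold, while the Hp share varied more. Because Lcn2 made up most of each tumour sum, the sum largely followed Lcn2, and its steady share is no separate result. Among the 8 tested genes, the order of mean level per length in tumours was Lcn2 (282 ± 172 RPKM), Lrg1 (39.7 ± 15.8), Hp (37.7 ± 33.7), Cp (9.44 ± 6.35), Orm1 (6.33 ± 1.14), Saa3 (4.97 ± 4.79), Orm2 (4.53 ± 1.30) and Hpx (0.684 ± 0.207). Neighbours in that order from Lrg1 to Orm2 differed by less than the larger of their SDs. In control lung the order was Hp (202 ± 43.4 RPKM), Cp (20.8 ± 4.85), Lcn2 (12.2 ± 2.34), Lrg1 (10.2 ± 1.87), Orm2 (8.43 ± 0.766), Saa3 (1.45 ± 0.864), Orm1 (1.39 ± 0.263) and Hpx (0.571 ± 0.174), where Lcn2 and Lrg1, Lrg1 and Orm2, and Saa3 and Orm1 differed by less than the larger of their SDs. With the length of 1 coding transcript per gene in place of all exon bases, a setting chosen after seeing the data, Lcn2 took 86.4% of the sum in tumours and 10.5% in controls, and Hp took 4.06% in tumours and 67.4% in controls.

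**Figure D3:**
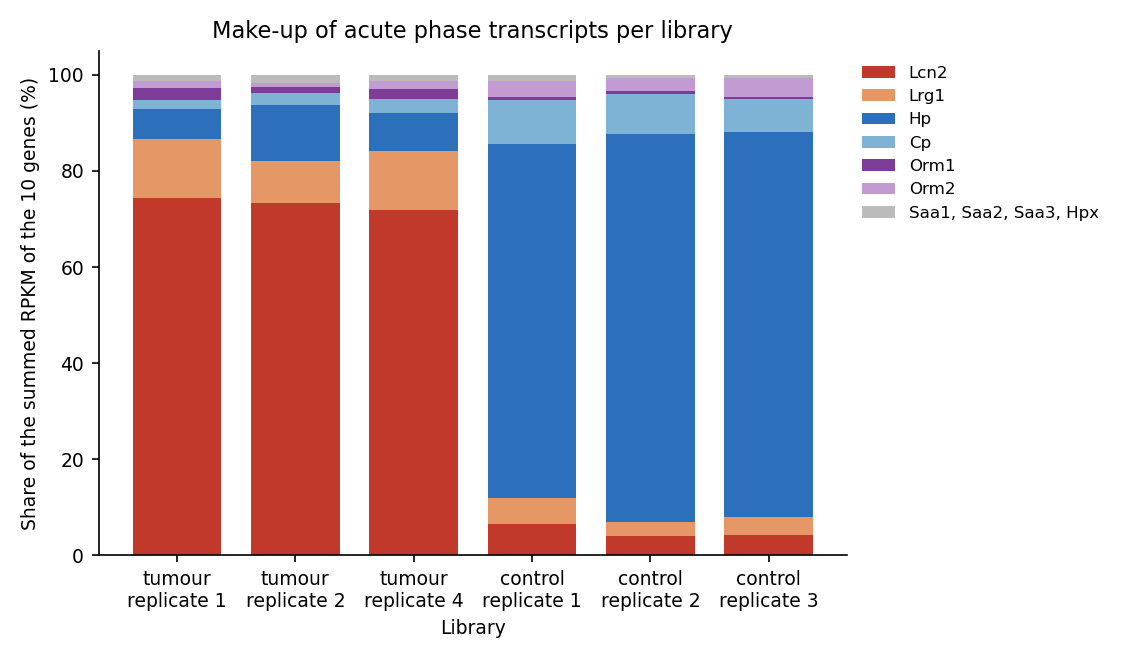
Share of each gene in the summed RPKM of the 10 genes, in percent, for each tumour and control library; Saa1, Saa2, Saa3 and Hpx are drawn together. Lcn2 fills 71.9% to 74.3% of the tumour bars and Hp 73.7% to 80.8% of the control bars.

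The tumours differed among themselves, and tumour replicate 2 was the highest tumour for 7 of the 8 tested genes, Hpx being the exception, against 31.1% of all genes tested. Relative to the mean of tumour replicates 1 and 4, tumour replicate 2 had 4.65 times the CPM of Saa3, 4.12 times that of Hp, 2.72 times that of Cp, 2.59 times that of Lcn2 and 1.82 times that of Lrg1. Tumour replicate 1 was the lowest tumour for the same 7 genes, but the share of all genes that were lowest in it was not counted. It also differed most from the other tumours across genes. Its chi-square divided by degrees of freedom was 277 against replicate 2 and 218 against replicate 4. Between replicates 2 and 4 the value was 63.2. Markers of other cells also differed between the tumours. Summed neutrophil markers were 11.9, 68.9 and 22.7 CPM in tumour replicates 1, 2 and 4, summed alveolar macrophage markers were 400.3, 2367 and 1659 CPM, and summed AT2 markers, genes of the surfactant-producing alveolar type 2 cells, were 33652, 77244 and 60632 CPM. Tumour replicate 2 was also the only library with a female pattern of sex-linked genes, so leaving it out also removes that difference in sex. The part of these cells and of sex in the difference between tumours was not tested.

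Set against the controls, cell type markers changed as follows. In bulk tissue, fewer cells of a type and less RNA per cell cannot be told apart. Of 16 neutrophil markers 13 were tested, 10 were lower in tumours and the other 3 did not pass, and their summed level was 11.9 to 68.9 CPM in tumours and 382 to 565 CPM in controls. The neutrophil surface marker Ly6g, picked out after its values were seen, had 2, 2 and 2 reads in tumour replicates 1, 2 and 4, against 9, 12 and 10 reads in control replicates 1, 2 and 3. Lcn2, which neutrophils also make, was higher in the tumours. Among the tumours, Lcn2 and the summed neutrophil markers were both highest in replicate 2 and lowest in replicate 1. The part of neutrophils in the Lcn2 level was not tested. Of 12 AT2 markers, 11 were higher, with a summed level of 33652 to 77244 CPM in tumours and 11536 to 18759 CPM in controls. Of 11 club cell markers, genes of airway secretory cells, 9 were lower and 1 higher, with a summed level of 202 to 365 CPM in tumours and 10849 to 17594 CPM in controls. Endothelial markers were lower in 12 of 14 cases (271 to 411 CPM in tumours, 2336 to 3423 CPM in controls), fibroblast markers in 10 of 12 (159 to 387 and 2306 to 2688 CPM), mesothelial markers in 8 of 10 (99.1 to 173 and 163 to 183 CPM) and ciliated cell markers in 10 of 10 (14.5 to 31.7 and 1142 to 1328 CPM). Alveolar macrophage markers were higher in 1 and lower in 2 of 14 (400.3 to 2367 CPM in tumours, 536 to 1884 CPM in controls), and other macrophage and monocyte markers were higher in 6 and lower in 3 of 15 (4076 to 9626 and 2448 to 3749 CPM). The higher sum of the latter does not hold for each marker. With all libraries Csf1r was lower, and Emr1, Cd68 and C1qa did not pass. Csf1r did not pass without control replicate 3 (edgeR adjusted p = 0.0507), and C1qa passed without tumour replicate 4 (edgeR adjusted p = 0.0333). Without tumour replicate 1, 7 alveolar macrophage markers were higher, and without control replicates 1, 2 or 3, each left out alone, 3, 2 and 3 of the other macrophage markers were. Adipocyte markers, of which 5 of 10 were tested, were higher in 1 and lower in 2 (22.96 to 32.8 and 35.3 to 54.4 CPM), or lower in 4 without tumour replicate 4. Adipoq and Lep had no read in tumours and were too low to test. Control replicates 1, 2 and 3 had 4, 0 and 13 reads of Adipoq and 2, 0 and 4 of Lep. The part of these cells in the acute phase results was not tested.

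Of 16 markers of hepatocytes, the main source of these proteins in the body, 9 were tested, 3 were higher and 2 lower, and their summed level was 32.7 to 231 CPM in tumours and 12.9 to 23.01 CPM in controls. The highest sum is that of tumour replicate 1, where the lipoprotein gene Apob alone had 187 CPM, and the sums were 32.7 and 43.1 CPM in tumour replicates 2 and 4. Without tumour replicate 4, 5 hepatocyte markers were higher. Among the defining markers Serpina1c had no read in tumours and 0, 1 and 2 reads in control replicates 1, 2 and 3. Cps1 had 0, 0 and 4 reads in tumour replicates 1, 2 and 4 and none in controls. Apoc3 and Cyp3a11 had no read in any library. Alb, which encodes albumin, had 22.5, 13.3 and 22.7 CPM in tumour replicates 1, 2 and 4, against 0.435, 0.243 and 0.162 CPM in control replicates 1, 2 and 3 (log2 fold change 6.16 ± 0.42, edgeR adjusted p = 2.60e-05).

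Other genes of the acute phase moved in both directions, as did all genes tested, of which 18.1% were higher and 23.8% lower. Of 35 further acute phase genes 28 could be tested, of which 12 were higher and 7 lower in tumours, with a median log2 fold change of 0.90, against a median of 0.01 over all genes tested. Itih2, a heavy chain of inter-alpha-trypsin inhibitor, averaged 115 ± 45.7 CPM in tumours and 4.88 ± 1.01 CPM in controls (SD, n = 3 each), with a log2 fold change of 4.56 ± 0.32 (edgeR adjusted p = 3.25e-05). Cd14, a co-receptor for lipopolysaccharide, averaged 41.9 ± 8.69 CPM in tumours and 10.4 ± 0.653 CPM in controls (2.01 ± 0.19, edgeR adjusted p = 9.82e-05). Serpina3n, a serine protease inhibitor and strong acute phase gene of mouse liver, averaged 9.09 ± 5.48 CPM in tumours and 65.9 ± 9.81 CPM in controls (-2.86 ± 0.40, edgeR adjusted p = 0.000754), or -3.45 on the log2 scale without tumour replicate 2. Complement C3 averaged 269.9 ± 163 CPM in tumours and 448 ± 78.0 CPM in controls and did not pass (edgeR adjusted p = 0.172), but without tumour replicate 2 it had a log2 fold change of -1.32 and an edgeR adjusted p = 0.00538. Hamp, which encodes the iron hormone hepcidin, had 4 reads over the tumours and 444 over the controls, 119-fold fewer after scaling (exact binomial 95% interval 46.2 to 439, for counting error only). Its fitted log2 fold change was -6.68 with all libraries, -7.87 without tumour replicate 2 and -6.03 without tumour replicate 1. Of 13 genes listed as negative acute phase genes, most of whose products fall in plasma during the acute phase, 9 were tested. Among these, 6 were higher and 2 lower, with a median log2 fold change of 1.88. Trf, the iron carrier transferrin, averaged 3757 ± 1343 CPM in tumours and 227 ± 32.1 CPM in controls (4.05 ± 0.32, edgeR adjusted p = 5.18e-05), and Rbp4, the retinol carrier, rose by 2.89 ± 0.19 (edgeR adjusted p = 2.45e-05).

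Calls among the inducing cytokines and their receptors ran in both directions, as did those over all genes tested (18.1% higher and 23.8% lower). Of 20 cytokine genes 13 were tested, with 6 higher, 1 lower (2 without tumour replicate 2) and a median log2 fold change of 0.73. Il6 was too low to test, with 4, 14 and 0 reads in tumour replicates 1, 2 and 4 and 5, 12 and 6 reads in control replicates 1, 2 and 3. Il1b averaged 10.9 ± 6.45 CPM in tumours and 41.0 ± 3.30 CPM in controls (log2 fold change -1.91 ± 0.37, edgeR adjusted p = 0.00367), and had -2.50 without tumour replicate 2. Lif, a cytokine of the interleukin 6 family, averaged 9.47 ± 0.794 CPM in tumours and 1.41 ± 0.239 CPM in controls (2.73 ± 0.24, edgeR adjusted p = 8.20e-05), and Il33, an alarmin of the interleukin 1 family, rose by 1.61 ± 0.26 (edgeR adjusted p = 0.00152). Of 23 receptor and kinase genes, 1 was higher and 7 were lower, with a median of -0.09. The higher count was 3 without tumour replicate 1 and 0 without tumour replicate 2, control replicate 1 or control replicate 3. Il6ra, the interleukin 6 receptor, averaged 13.5 ± 2.08 CPM in tumours and 46.7 ± 1.79 CPM in controls (-1.79 ± 0.16, edgeR adjusted p = 9.14e-05). Il6st, the shared signalling chain gp130, fell by 1.65 ± 0.21 on the log2 scale (edgeR adjusted p = 0.000418). Lifr, the receptor of Lif, fell by 2.24 ± 0.31 (edgeR adjusted p = 0.000662).

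Among 28 transcription factor genes 26 were tested, of which 9 were higher and 9 lower, with a median log2 fold change of -0.18. Without control replicates 1, 2 or 3, each left out alone, 5 were lower. Cebpa averaged 317 ± 105 CPM in tumours and 41.8 ± 6.49 CPM in controls (2.92 ± 0.26, edgeR adjusted p = 8.16e-05), whereas Cebpb and Cebpd, the C/EBP members induced in the acute phase, had -0.59 ± 0.27 and 0.10 ± 0.33 and did not pass (edgeR adjusted p = 0.114 and 0.828). Foxa3, a factor that also acts in liver, had a log2 fold change of 5.96 ± 0.43 (edgeR adjusted p = 3.39e-05). Nfkbiz, a cofactor of NF-kappa B needed for induction of Lcn2 in mouse cells, averaged 13.8 ± 1.98 CPM in tumours and 36.9 ± 0.904 CPM in controls (-1.42 ± 0.16, edgeR adjusted p = 0.000241). Stat3 averaged 163 ± 32.1 CPM in tumours and 138 ± 3.51 CPM in controls and did not pass (edgeR adjusted p = 0.297), but passed without tumour replicate 1 (log2 fold change 0.42, edgeR adjusted p = 0.0333). Of 19 feedback inhibitors 6 were lower and the other 13 did not pass, with a median of -0.43. DESeq2 and a fit with no low count filter each called 1 of them higher, and the fit without tumour replicate 1 called 4. The NF-kappa B inhibitor and target Nfkbia, the phosphatase gene Dusp1 and the deubiquitinase gene Otud7b had log2 fold changes of -1.32 ± 0.23, -2.32 ± 0.30 and -1.01 ± 0.19 (edgeR adjusted p = 0.00224, 0.000533 and 0.00325). Socs3, the STAT3-induced inhibitor of gp130 signalling, averaged 21.6 ± 5.18 CPM in tumours and 18.02 ± 0.451 CPM in controls (edgeR adjusted p = 0.330), and passed without tumour replicate 1 (log2 fold change 0.47, edgeR adjusted p = 0.0219).

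**Figure D4:**
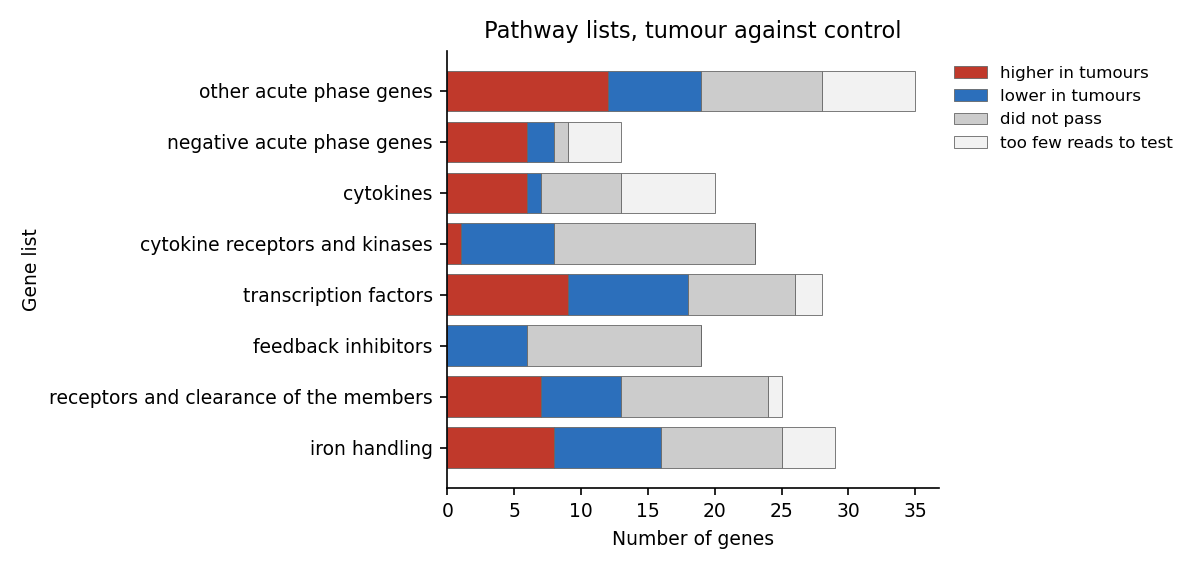
Number of genes of each pathway list that were higher in tumours, lower in tumours, did not pass the edgeR test at an adjusted p under 0.05, or had too few reads to be tested. Other acute phase genes counted 12 higher and 7 lower, and cytokine receptors and kinases 1 higher and 7 lower.

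Of 25 genes for receptors and clearance of these proteins 24 were tested, with 7 higher and 6 lower and a median log2 fold change of 0.05. Without control replicate 2, 4 were higher, and without control replicate 3, 3 were. Lrp2, the endocytic receptor megalin, which takes up lipocalin 2, averaged 755 ± 194 CPM in tumours and 251 ± 66.4 CPM in controls (1.59 ± 0.26, edgeR adjusted p = 0.00172). Slc22a17, a proposed lipocalin 2 receptor, averaged 8.69 ± 1.98 CPM in tumours and 5.29 ± 0.537 CPM in controls (0.71 ± 0.24, edgeR adjusted p = 0.0443). It did not pass without any 1 of control replicates 1, 2 and 3 or tumour replicates 2 and 4 (edgeR adjusted p from 0.0754 to 0.132), nor with all libraries in limma-voom (adjusted p = 0.0553) or with no low count filter (edgeR adjusted p = 0.0505). Cd163, the macrophage receptor for haptoglobin bound to haemoglobin, had 4, 9 and 6 reads in tumour replicates 1, 2 and 4, against 241, 436 and 244 in control replicates 1, 2 and 3 (-5.65 ± 0.41, edgeR adjusted p = 3.37e-05). Lrp1, the receptor for hemopexin bound to haem, fell by 1.40 ± 0.20 (edgeR adjusted p = 0.000785). Eng and Acvrl1, the endothelial TGF-beta receptor genes through which Lrg1 protein acts in mouse vessels, had log2 fold changes of -3.56 ± 0.28 and -4.36 ± 0.26 (edgeR adjusted p = 5.09e-05 and 1.72e-05). Hmox1, haem oxygenase 1, averaged 41.7 ± 16.3 CPM in tumours and 18.5 ± 2.96 CPM in controls (1.17 ± 0.29, edgeR adjusted p = 0.0133), and did not pass without control replicates 2 or 3 (edgeR adjusted p = 0.0525 and 0.0644). Of 29 iron handling genes 25 were tested, with 8 higher (5 without control replicate 3), 8 lower and a median of -0.15. Aco1, the iron-sensing iron regulatory protein 1, rose by 1.80 ± 0.13 on the log2 scale (edgeR adjusted p = 3.45e-05), and Heph, a ferroxidase related to ceruloplasmin, averaged 2.15 ± 0.578 CPM in tumours and 11.7 ± 2.85 CPM in controls (-2.44 ± 0.29, edgeR adjusted p = 0.000342).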

How the data were processed

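Reads had been assigned by the authors, per the file headers, to the exons of each GENCODE vM1 gene name (mm9) with featureCounts 1.6.5, without a strand option, and a read overlapping several names was counted for each. The deposited values are raw read counts, and the deposited length column, another kind of value, holds exon bases per name. STAR (version not stated), R 3.6.0 and the builds GRCm38 and mm9 come from the submitters' processing notes, which also list limma and edgeR. From the deposited counts, genes were tested with edgeR 4.0.16 in R 4.3.3: filterByExpr with a minimum count of 10, TMM scaling, a quasi-likelihood F test on group alone, and adjustment by Benjamini-Hochberg over the 20001 genes tested, at 0.05. Standard errors come from the F statistic. CPM uses the reads of tested genes after TMM scaling. Alternatives were DESeq2 1.42.0, limma-voom 3.58.1, other scalings, no filter, each library left out and a replicate block.

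The genes and lists were chosen with earlier results of these data known. Named were all 10 acute phase genes, the 3 smallest p of each pathway list, 17 preset genes, and counts and sums of 11 cell type lists; a gene that this rule names is not reported here. Of 332 list entries, 322 matched by name and 10 through an older name. Coordinates are mm9 unless stated; sequences come from RefSeq (GRCm38.p6) and GENCODE M21 (GRCm38), and no coordinate was converted.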

Additional observations from a re-analysis of the deposited data

How the results depend on the processing

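The directions of the 8 tested acute phase genes held under all 12 alternatives, namely 2 other scalings, DESeq2, limma-voom, no filter on low counts, a replicate block and 6 left-out libraries. Lcn2, Orm1, Lrg1 and Hp passed under all of them, with log2 fold changes of 3.93 to 4.86, 2.04 to 2.36, 1.62 to 2.23 and -3.44 to -1.97. With each library left out in turn, 3 to 4 of these genes were higher and 1 to 3 lower, and over all genes 2536 to 4210 were higher and 3870 to 5226 lower. The replicate numbers that both groups share showed no positive pairing: deviations from the group means correlated at -0.18 for number 1 and -0.01 for number 2. These 2 values cannot settle whether libraries were paired, since control replicate 3 and tumour replicate 4 have no partner. With the replicate block, which leaves few degrees of freedom, 1092 genes were higher and 2549 lower, against 3627 and 4770 without it, 3 acute phase genes were higher and 1 lower, and Orm2 had an adjusted p of 0.220. DESeq2 called 4 of the acute phase genes higher and 3 lower. Over genes fitted in both, the median shift of a gene's log2 fold change was at most 0.04 in any alternative, while the median over all genes fitted, 0.01 in the main fit, was -0.07 in DESeq2 and -0.06 with no filter, which fit 26914 genes. Of 456 recomputed list counts, 39 moved by over 1.5 times. The left-out libraries behind some of these are given with each list, and without tumour replicate 4 also 1 mesothelial marker was higher. Others came from the replicate block, where 2 cytokine, 2 receptor and clearance, 2 iron handling, 3 AT2, 1 other macrophage and 0 alveolar macrophage or cytokine receptor genes were higher, 5 transcription factors were higher and 2 lower, 2 feedback inhibitors and 3 receptor and clearance genes were lower, and 0 negative acute phase, 1 hepatocyte, 1 alveolar macrophage and 1 adipocyte genes were lower. The block also ended the calls of Lrp1, Otud7b, Lrp2, Hmox1 and Slc22a17 (edgeR adjusted p = 0.0543, 0.0566, 0.0660, 0.207 and 0.323). DESeq2 and no filter each gave 5 lower adipocyte markers, and limma-voom 0 higher club cell markers. The cause of these differences was not tested. Depth limits Saa1 and Saa2, for which 3 counts in 1 library equal 0.0456 to 0.0815 CPM.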

Other observations

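Apob, a lipoprotein gene on the hepatocyte list that was picked out after its values were seen, had 187, 1.19 and 3.54 CPM in tumour replicates 1, 2 and 4, against 5.43, 4.01 and 2.27 CPM in control replicates 1, 2 and 3. Tumour replicate 1 was the high library here. The log2 fold change of Apob was 4.04 (edgeR adjusted p = 0.0786) with all libraries and -0.71 (edgeR adjusted p = 0.291) without tumour replicate 1, and it passed without tumour replicates 2 or 4 (edgeR adjusted p = 0.0169 and 0.0401).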
